A study of Mus musculus with 16 samples.

Results

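The nucleus pulposus of 14-month-old mice with and without a conditional deletion of HIF-2α was compared on 8 Affymetrix arrays, 4 per genotype, of the 16 arrays of the series. The nucleus pulposus is the soft core of the intervertebral disc. Control animals had the genotype HIF-2αf/f, meaning both copies of the gene for HIF-2α were floxed, with no Cre. The knockout animals (cKO) had the genotype FoxA2Cre; HIF-2αf/f, so the same floxed alleles were combined with a Cre recombinase driven from FoxA2, a gene of the notochord, the embryonic rod from which the nucleus pulposus forms. Deletion by such a driver depends on the cell lineage, and the labels do not say how complete it was in the dissected tissue. The series' design gives 4 mice per group, and nothing states whether each array holds a single mouse, so the spread between arrays may be partly technical. The members of the comparison were all probe sets with a gene symbol on the platform, leaving out those on the X and Y chromosomes. These were 18732 of 22206 probe sets, covering 18680 distinct symbols. The other 8 arrays, of 6-month-old mice of the same genotypes, were used for the shared estimate of spread and to set the genotype difference at 14 months beside that at 6 months.

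HIF-2α, encoded by Epas1, is the oxygen-regulated subunit of a transcription factor. In well-oxygenated cells the prolyl hydroxylases of the Egln family mark HIF-α subunits, the VHL protein recognises the mark and the subunits are degraded. In low oxygen they accumulate, pair with ARNT and bind DNA at sites with the core ACGTG or GCGTG. The adult nucleus pulposus has no vessels of its own, and HIF-1α is known to be active there and to sustain a metabolism based on glycolysis. In joint cartilage HIF-2α has been linked to enzymes that break down matrix and to endochondral ossification.

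The promoters of 4 genes that the results below turn on are shown first, as the 150 bases just before the RefSeq transcription start in the GRCm38.p6 assembly, written 5′ to 3′ on the gene's own strand. Capitals mark the HIF core ACGTG on either strand, and the variant core GCGTG is left in lower case. Within the list of hypoxia targets outside glycolysis, Bnip3 was the gene whose 14-month groups were apart. Slc2a1 and Egln1 were hypoxia-inducible genes whose genotype difference was not the same at both ages, and Igfbp5 had the smallest p at 14 months. The windows are chr7:138909507-138909656 (minus strand) for Bnip3, chr4:119108595-119108744 (plus) for Slc2a1, chr8:124949255-124949404 (minus) for Egln1 and chr1:72874866-72875015 (minus) for Igfbp5.
Bnip3: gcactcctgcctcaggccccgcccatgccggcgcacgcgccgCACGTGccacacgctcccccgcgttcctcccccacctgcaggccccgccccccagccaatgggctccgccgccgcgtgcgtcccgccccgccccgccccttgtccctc
Slc2a1: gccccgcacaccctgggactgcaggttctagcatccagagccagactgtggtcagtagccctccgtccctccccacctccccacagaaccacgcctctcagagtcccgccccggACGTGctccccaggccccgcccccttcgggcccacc
Egln1: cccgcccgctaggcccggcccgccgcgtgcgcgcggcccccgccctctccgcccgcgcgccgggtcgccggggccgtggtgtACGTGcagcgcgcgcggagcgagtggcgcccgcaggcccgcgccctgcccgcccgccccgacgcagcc
Igfbp5: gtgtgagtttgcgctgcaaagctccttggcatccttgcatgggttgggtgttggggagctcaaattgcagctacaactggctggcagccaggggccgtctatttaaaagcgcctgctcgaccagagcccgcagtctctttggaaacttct

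Bnip3 holds the core on both strands at overlapping positions, 108 bases before the start. Slc2a1 and Egln1 hold it once each, and the Igfbp5 window holds 0. On either strand GCGTG occurs 3 times in the Bnip3 window, 1 time each in those of Slc2a1 and Egln1 and 0 times in that of Igfbp5. A match is only a match of letters: 16.6% of the 32851 mouse promoters in the table hold ACGTG on either strand within the 250 bases before the start, and 28.2% hold GCGTG. For ACGTG alone, among members with a promoter in the table (15033 probe sets, matched by symbol), 20.7% had the core. It was present for 21.2% of the 255 of these with an unadjusted p under 0.05 and a higher value in cKO, and for 18.3% of the 246 with a lower value. The median cKO-minus-control difference at 14 months was 0.03 with the core and 0.00 without it, on the log2 scale.

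Values are log2 expression as deposited, running from 2.46 to 19.93 over the table with a median of 6.35. The arrays do not give signal over background. As a guide to the dim end, 1416 olfactory and vomeronasal receptor probe sets, which a disc is not known to use, had a median of 4.78 in the 14-month controls and 4.70 in cKO. Levels near these may hold little or no transcript. Across all probe sets, 14-month arrays correlated at 0.964 to 0.987 within a genotype and at 0.973 to 0.984 between genotypes, and these ranges overlapped. The first principal component of the 14-month arrays held 27.0% of the variance. Control array 4 lay at 52.3 on it and control array 1 at -41.5, and all cKO arrays lay between -8.84 and 19.0. The 2 most distant arrays were thus both controls. The within-group SD was larger in controls than in cKO for 62.8% of members, with medians of 0.32 and 0.26.

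Markers of the tissue were present on every 14-month array, and they did not separate the genotypes. The keratin Krt19, a notochord and nucleus pulposus marker, read 16.67, 17.22, 17.47 and 17.42 in controls and 17.28, 17.26, 17.38 and 17.38 in cKO. The carbonic anhydrase Car3 averaged 19.90 and 19.93. The highest value deposited was 19.93, so a difference in Car3 may be compressed. The surface protein Cd24a averaged 18.26 and 18.28. Acan, the core protein of the proteoglycan aggrecan, read 19.44, 19.30, 19.43 and 19.31 in controls and 19.30 to 19.31 in cKO, near the top of the scale, where a difference may be compressed. The notochord transcription factors were dimmer, Noto at means of 7.46 and 6.96 and Foxa2 at 6.52 and 6.33. Probe sets for the gene T (Brachyury) were not used here.

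The labels give no sex, and it was taken from 3 genes of the Y chromosome, Kdm5d, Uty and Eif2s3y. At 14 months 1 of 4 control arrays (array 4) and 3 of 4 cKO arrays (1, 2 and 4) were male by these genes. At 6 months 0 of 4 controls and 3 of 4 cKO arrays were male, so genotype and sex were partly confounded at both ages. Control array 4 also stood apart in skeletal muscle genes. For the 16 muscle markers, deviations were taken from each gene's mean over the 8 arrays of 14 months. The median deviation of control array 4 was 1.35, against -0.48 to 0.08 on the other 14-month arrays. The actin Acta1 read 9.30 there and 5.07, 6.35 and 5.39 on the other controls.

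At 14 months the genotypes differed at no probe set by the test used. Limma called 0 of the 18732 members at a Benjamini-Hochberg adjusted p under 0.05 (0% higher and 0% lower in cKO), and the smallest adjusted p was 0.577. At an unadjusted p under 0.05 there were 314 members higher in cKO (1.68%) and 323 lower (1.72%), 3.4% in all, where 936.6 members would be expected if p-values were spread evenly. The size of the shortfall varied with the fit. With limma on the 14-month arrays alone, 426 were higher and 420 lower, together still short of 936.6. With array weights over all arrays 532 were higher and 520 lower, together more than that. The 4 cKO arrays lay entirely above the 4 controls for 246 members (1.31%) and entirely below for 248 (1.32%), or 494 together (2.64%). Differences past 1 on the log2 scale, which is 2-fold, were found for 49 members higher in cKO (0.262%) and 25 lower (0.133%). None of these single genes is therefore called as changed, and "higher" and "lower" below describe measured means. Counts in the gene lists below are to be read beside the 1.68% and 1.72% of all members. Of the 62 genes of the naming rule with an unadjusted p under 0.05, 28 had a p at or above 0.05 when at least 1 of the 8 arrays was left out, the difference of 12 moved by over 1.5 times, and 0 changed sign. Values without an array are given below for those 12 and some others. The rest of the 28 were Angpt1, Ccn1, Cdk1, Hsp90b1, Ift122, Igfals, Lgr4, Ltbp2, Nfatc1, Nos1ap, Rbpj, Robo1, Slit2, Tek and Vcan.

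**Figure D1:**
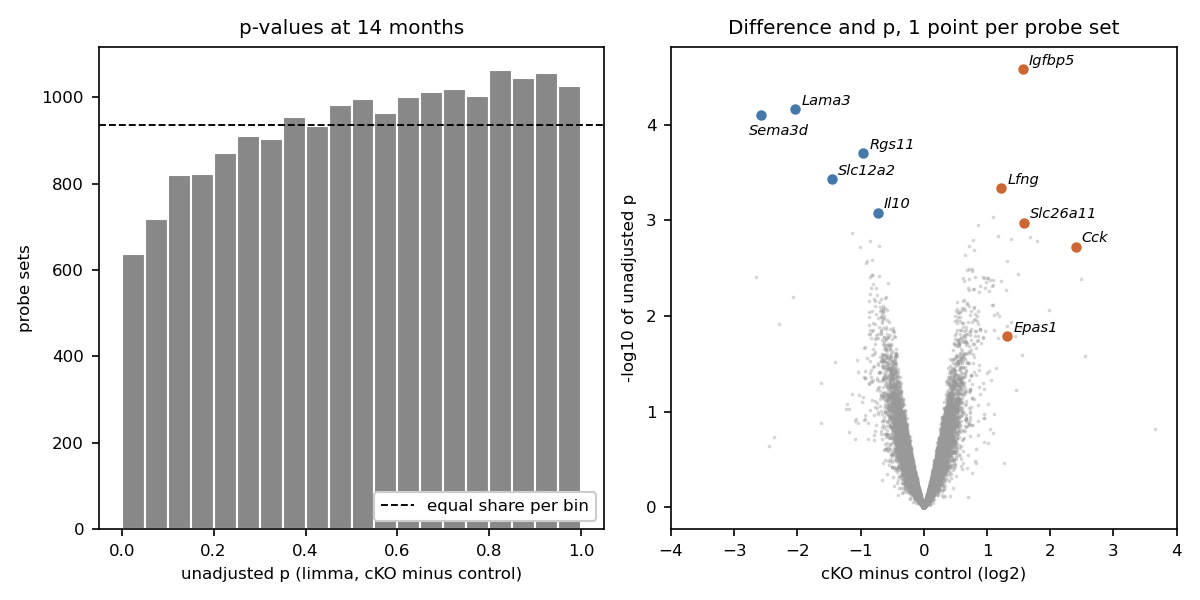
Left: number of the 18732 named autosomal probe sets in each of 20 equal bins of the unadjusted p (limma, cKO minus control at 14 months), with a dashed line at an equal share per bin. The leftmost bin lies below the line. Right: each point is 1 probe set, with the cKO-minus-control difference (log2) on the x axis and -log10 of the unadjusted p on the y axis. Igfbp5, Lama3 and Sema3d lie highest, and Epas1 lies on the higher side.

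The precision of the comparison bounds what could have gone unseen. The median standard error of a difference was 0.25, which gives a median 95% interval of the estimate plus or minus 0.53. For 16411 members (87.6%) the whole interval lay within 1 of no difference, so a change over 2-fold in the measured value lay outside it. Near the dim end or the top of the scale a measured value may not follow the transcript, and there the interval does not bound its change. Only 10394 members were above the array's median on at least 4 arrays. For the remaining members the interval reached beyond 1 in at least 1 direction. The median absolute difference was 0.16, smaller than the median standard error.

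The targeted gene was not lower in cKO. Epas1 read 10.15, 11.02, 11.81 and 9.79 in the 14-month controls and 12.26, 11.73, 12.37 and 11.68 in cKO. All cKO arrays but 2 lay above every control, and the highest control, array 3, exceeded cKO arrays 2 and 4. The difference was 1.32 (SE 0.50, 95% interval 0.27 to 2.36, unadjusted p = 0.0161, adjusted p = 0.999, limma), upward, which is opposite to what the label of a knockout implies. Without control array 4 it was 1.02 (unadjusted p = 0.0634). At 6 months it was 0.87, with adjusted p = 0.35. Where the probes of this set lie relative to the floxed exon is not stated in these sources, so an intact signal does not check the deletion, and groups are named by their labels throughout. Hif1a, the gene for the other main HIF-α subunit, read 13.86, 13.97, 14.39 and 14.36 in controls and 14.47, 14.36, 13.83 and 14.52 in cKO. These ranges overlapped, and the difference was 0.15 (95% interval -0.45 to 0.75).

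The rest of the HIF machinery differed little. Of its 10 measured genes Epas1 alone had an unadjusted p under 0.05, beside 1.68% of all members in that direction, and the median difference was 0.17, against 0.00 over all members. Egln1, the main oxygen-sensing hydroxylase, read 16.06, 15.78, 15.70 and 15.95 in controls and 16.05, 15.61, 15.99 and 15.54 in cKO, a difference of -0.08 (95% interval -0.48 to 0.33). Vhl, the ubiquitin ligase subunit, differed by -0.01 (95% interval -0.42 to 0.40). Egln3 (0.38) and the inhibitory family member Hif3a (-0.46) had intervals that included 0.

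Of the 20 measured hypoxia targets outside glycolysis, 1 was higher at an unadjusted p under 0.05 and 0 lower, and the median difference was 0.04. For 14 of the 20 the 95% interval lay within 1 of no difference. Bnip3, a mitophagy receptor and a classical HIF target, read 15.30, 15.40, 15.42 and 15.51 in controls and 15.90, 15.76, 16.42 and 16.08 in cKO. Every cKO array lay above every control. The difference was 0.63 (SE 0.26, 95% interval 0.08 to 1.19, unadjusted p = 0.0278, limma), and the unadjusted p was 0.0567 without control array 1 and 0.0922 without cKO array 3. Car9, a cell-surface carbonic anhydrase used as a hypoxia marker, read 9.55, 10.30, 8.60 and 9.47 in controls and 10.82, 10.59, 10.00 and 9.94 in cKO. Only control array 2 reached into the cKO range, and the interval of the difference (-0.26 to 1.98) included 0. Vegfa, the vascular growth factor, differed by -0.05 (95% interval -0.88 to 0.78). The related mitophagy receptor Bnip3l differed by -0.06, the mitochondrial protein Higd1a by 0.01 and the stress gene Ndrg1 by -0.18.

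Glycolytic genes did not separate the genotypes. Of 20 measured, 0 had an unadjusted p under 0.05, 9 differed upward and 11 downward, and the median was -0.04. For 18 of the 20 the 95% interval lay within 1 of no difference. Slc2a1, the main glucose transporter of these cells, read 19.81, 19.78, 19.65 and 19.81 in controls and 19.79, 19.81, 19.81 and 19.79 in cKO. These values sit at the top of the scale, so the small difference (0.04) may be compressed. Enzymes with room above them were also close. Ldha, which makes lactate, differed by 0.17 (95% interval -0.27 to 0.60), Pdk1, which restrains pyruvate oxidation, by -0.14 (-0.60 to 0.32), and the hexokinase Hk2 by -0.07 (-0.80 to 0.67). Slc2a3, a second glucose transporter, had the widest gap of the list at -0.62, with an interval of -1.49 to 0.25. Its highest reading, 10.72, was on control array 4, and without that array the difference was -0.29.

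**Figure D2:**
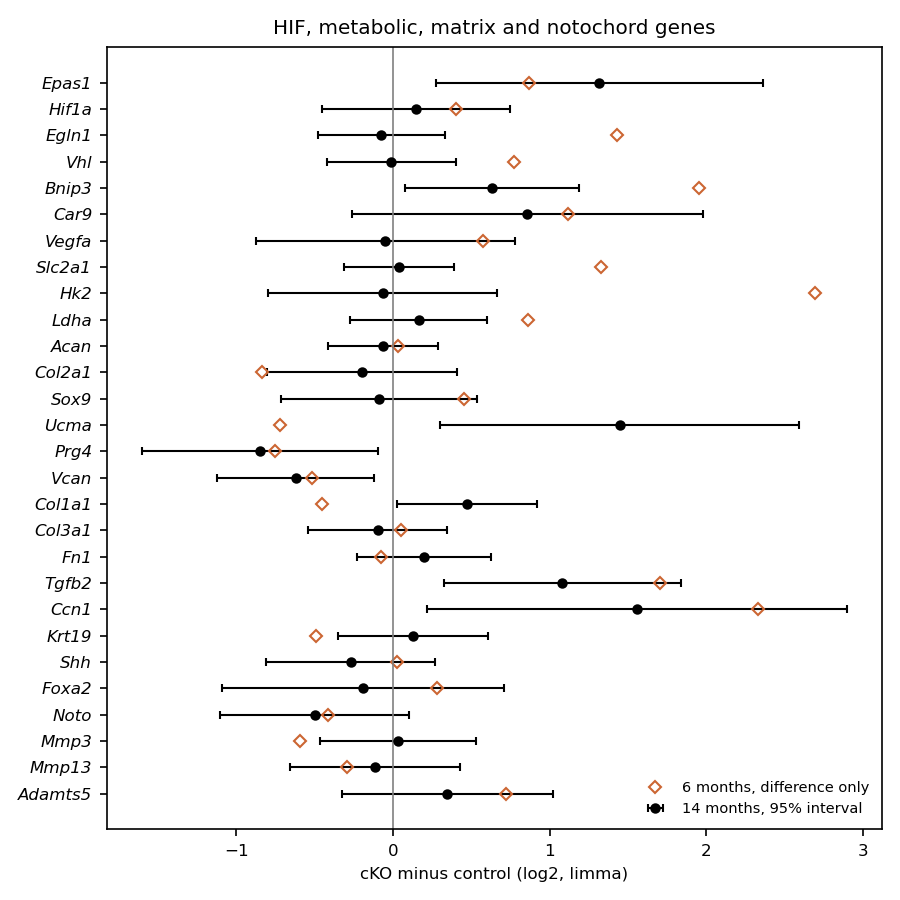
Difference between cKO and control (log2, limma) for 28 genes of the HIF pathway, metabolism, matrix, notochord and proteases. Black points with bars are the 14-month estimate and its 95% interval, and open diamonds are the 6-month difference without its interval. Most 14-month intervals include 0, Epas1, Bnip3, Ucma, Tgfb2, Ccn1 and Col1a1 lie to the right and Prg4 and Vcan to the left, and none is past the adjusted test.

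Igfbp5 had the smallest p of all members. It encodes a binding protein that holds insulin-like growth factors in the matrix. It read 7.42, 6.39, 6.12 and 6.90 in controls and 8.68, 7.76, 8.15 and 8.50 in cKO. The lowest cKO array lay above the highest control. The difference was 1.57 (SE 0.28, 95% interval 0.98 to 2.15, unadjusted p = 2.6e-05, adjusted p = 0.577, limma). With the groups apart, the direction within each sex could not have been otherwise. Within females the single cKO array exceeded the mean of 3 controls by 1.51, and within males the mean of 3 cKO arrays exceeded the single control by 1.41. At 6 months the difference was -0.32, and the difference between the ages was 1.88 (adjusted p = 0.0917). Without control array 1 the 14-month value was 1.80 with an adjusted p of 0.0287, so the call depended on that array.

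Other IGF genes showed no shared direction. Of 19 measured, 2 were higher and 1 lower at an unadjusted p under 0.05, and the median was -0.06. Igfbp7, a secreted protein of the same superfamily often studied in senescent cells, read 10.19, 11.77, 12.55 and 11.63 in controls and 12.59, 12.45, 12.15 and 12.56 in cKO. Control array 1 was far below the rest, and control array 3 lay among the cKO arrays. The mean difference was 0.90 (unadjusted p = 0.0193), and without control array 1 it was 0.45 (unadjusted p = 0.107). Igfals, which stabilises circulating IGF complexes, was lower by a mean of 0.49 with groups apart, at a level near 5. Igf1 itself differed by 0.06 (95% interval -0.41 to 0.54).

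Lama3 and Sema3d had the smallest p in the other direction. Lama3 encodes the α3 chain of laminin-332, a basement membrane protein of epithelia. It read 7.94, 7.21, 7.68 and 9.56 in controls and 6.51, 6.17, 5.63 and 5.96 in cKO. All controls lay above all cKO arrays, and control array 4 was the highest by far. The difference was -2.03 (SE 0.40, 95% interval -2.86 to -1.20, adjusted p = 0.578, limma) and -1.54 without that array (adjusted p = 0.202). Within females it was -1.98 and within males -3.35. With sex as a covariate it was -2.64 with an adjusted p of 0.00104, the single call of that fit, which was 1 of several alternatives.

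Sema3d encodes a secreted semaphorin, a class of guidance cues that repel or attract growing axons and vessels. It read 9.36, 10.29, 11.37 and 11.78 in controls and 7.84, 7.22, 8.72 and 8.75 in cKO. Here too the groups were apart, with a spread of over 2 within the controls alone. The difference was -2.57 (SE 0.51, 95% interval -3.63 to -1.50, adjusted p = 0.578, limma). Within females it was -1.62 and within males -3.84. Of 38 measured axon guidance genes, 1 was higher and 2 lower at an unadjusted p under 0.05. The others were Slit2, a ligand of Robo receptors, higher by a mean of 0.83, and the receptor gene Robo1, lower by 0.60 at levels near 4. The median of the list was -0.09, and Sema3a differed by 0.02. Of 24 basement membrane genes, Lama3 and the collagen IV chain Col4a4 (-0.61, unadjusted p = 0.0256) were lower, and 0 higher. Without control array 4 Col4a4 differed by -0.47 (unadjusted p = 0.0908).

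**Figure D3:**
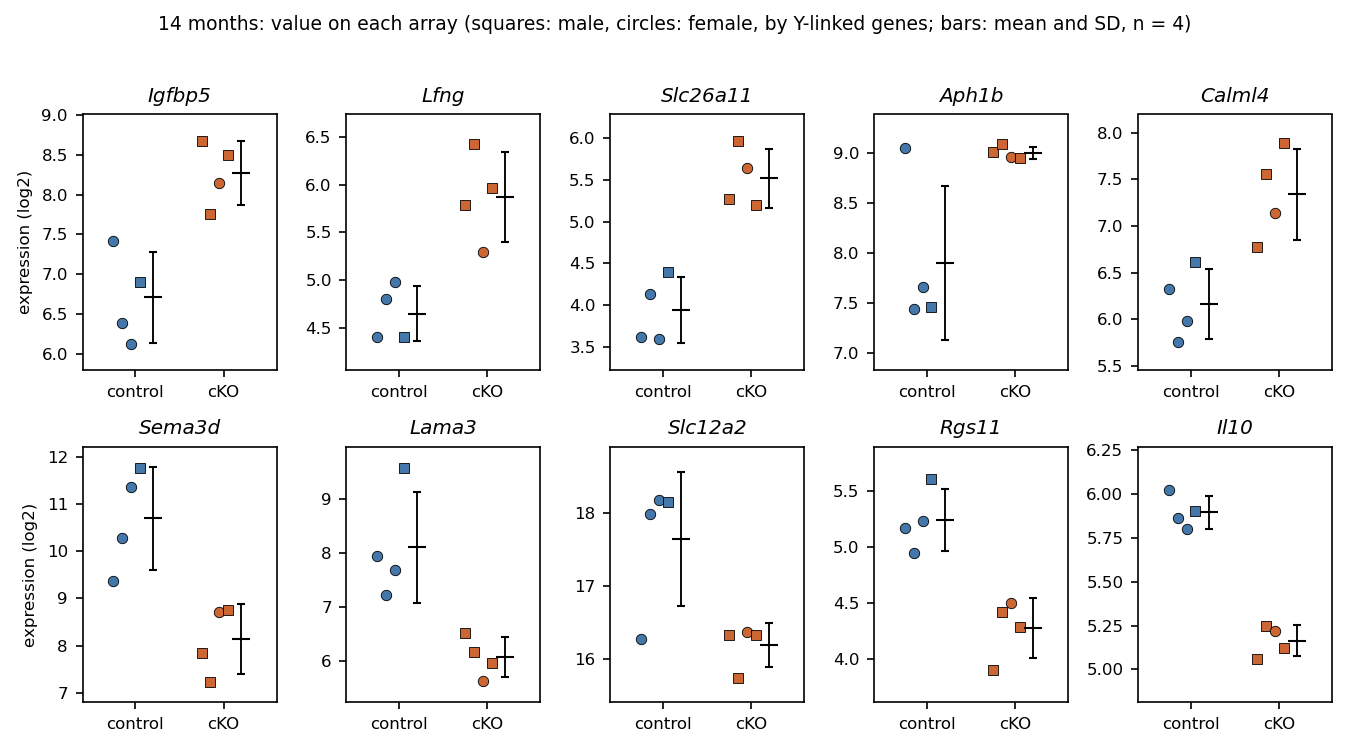
Expression (log2) of 10 genes on each of the 8 arrays of 14 months, with controls in blue and cKO in orange. Squares are male and circles female arrays by Y-linked genes, and the bar beside each group is the mean with its SD over 4 arrays. For Igfbp5, Lfng, Slc26a11, Calml4, Sema3d, Lama3, Rgs11 and Il10 the groups do not overlap, whereas control array 1 lies with the cKO arrays for Aph1b and Slc12a2.

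Ion transport genes included an abundant member. Slc12a2 encodes NKCC1, the cotransporter that brings sodium, potassium and chloride into cells and takes part in volume regulation. It read 16.27, 17.98, 18.18 and 18.15 in controls and 16.32, 15.74, 16.37 and 16.32 in cKO. Control arrays 2 to 4 were all above the cKO arrays by more than 1.5, and control array 1 lay among them. The difference was -1.46 (SE 0.33, 95% interval -2.16 to -0.76, adjusted p = 0.999, limma), and without control array 1 it was -1.92 with an adjusted p of 0.00404. Slc26a11, a sulfate and chloride transporter gene, read 3.62, 4.13, 3.60 and 4.40 in controls and 5.27, 5.96, 5.64 and 5.20 in cKO. The groups were apart, at levels around that of the olfactory receptors, so this is a difference near the dim end. Slc26a2, the sulfate transporter that supplies proteoglycan sulfation, was higher by a mean of 0.75 (unadjusted p = 0.00891), with cKO array 4 inside the control range. Slc6a12, which imports the osmolyte betaine and is also named to complete a count, was lower by 0.85 (unadjusted p = 0.0395), and Nfat5, the transcription factor of the osmotic response, differed by 0.09 (95% interval -0.49 to 0.67). Over the 31 measured anion and osmotic genes 2 were higher and 2 lower.

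Of 30 measured Notch pathway genes, 3 were higher at an unadjusted p under 0.05 and 0 lower, beside 1.68% and 1.72% of all members, with a median of 0.07. Lfng, a glycosyltransferase that tunes Notch receptors, read 4.41, 4.80, 4.98 and 4.41 in controls and 5.79, 6.43, 5.30 and 5.96 in cKO. The groups were apart, and the controls lay near the olfactory receptor median. Aph1b, a subunit of the γ-secretase that cleaves Notch, read 9.05, 7.44, 7.66 and 7.46 in controls and 9.01, 9.09, 8.96 and 8.95 in cKO. The cKO arrays agreed within 0.2, and control array 1 matched them while the other controls lay more than 1 lower. Without control array 1 the difference went from 1.10 to 1.48 (adjusted p = 0.0052). Rbpj, the DNA-binding partner of cleaved Notch, was higher by a mean of 0.42 with groups apart (unadjusted p = 0.0439). The receptor Notch1 differed by 0.08 (95% interval -0.53 to 0.68).

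Other signalling genes followed the same pattern of a few small differences. Of 45 measured Wnt genes, 2 were higher and 1 lower at an unadjusted p under 0.05. Wnt5a, a ligand of mainly β-catenin-independent signalling, read 7.36, 7.45, 7.28 and 7.05 in controls and 6.33, 6.73, 6.10 and 6.67 in cKO. Every control lay above every cKO array, and the difference was -0.83 (SE 0.25, unadjusted p = 0.00375). The coreceptor gene Lrp6 read 12.70, 12.68, 12.98 and 12.41 in controls and 13.39, 13.30, 13.46 and 13.25 in cKO. These groups were apart too, with a difference of 0.66 (unadjusted p = 0.00862). The target gene Axin2 differed by -0.16, with an interval that included 0. Of 13 hedgehog genes 0 had an unadjusted p under 0.05. Shh, the ligand made by notochord cells, differed by -0.27 (95% interval -0.81 to 0.27) and Ptch1, its receptor and target, by 0.03.

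Of 31 measured collagen and fibrosis genes, 3 were higher at an unadjusted p under 0.05 and 0 lower, 21 of 31 differed upward, and the median was 0.19. Tgfb2, a TGF-β ligand, read 12.49, 12.09, 12.91 and 11.80 in controls and 13.46, 14.49, 13.15 and 12.51 in cKO. Only cKO array 4 fell inside the control range. The difference of 1.08 (95% interval 0.32 to 1.84) stood beside 1.71 at 6 months, where it passed (adjusted p = 0.015). Without cKO array 2 the 14-month value was 0.72 (unadjusted p = 0.0432). Ccn1, a matricellular protein, read 12.60, 12.60, 15.51 and 13.49 in controls and 15.73, 13.45, 14.80 and 16.44 in cKO, with a wide spread in both groups and overlapping ranges. Its difference was 1.56 at 14 months (unadjusted p = 0.0253) and 2.33 at 6 months (adjusted p = 0.044). Col1a1, the main chain of collagen I, read 7.36, 8.24, 8.26 and 8.18 in controls and 8.51, 8.62, 8.28 and 8.52 in cKO. The groups were apart by only 0.02. Without control array 1 the difference went from 0.47 to 0.26 (unadjusted p = 0.2). Col1a2, its partner chain, differed by -0.33, Col3a1 by -0.10 and fibronectin, Fn1, by 0.20, each with an interval that included 0.

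Of 43 measured TGF-β and BMP genes, 2 were higher and 1 lower at an unadjusted p under 0.05. Id1, a target of BMP signalling, was higher by 0.79 (unadjusted p = 0.0268), with an overlap, and by 0.50 without control array 4 (unadjusted p = 0.127). Ltbp2, a latent TGF-β binding protein family member, was lower by 0.49 at levels below 5.

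Of 28 measured cartilage matrix genes, 1 was higher and 3 lower at an unadjusted p under 0.05, and the median was -0.08. Ucma, a secreted protein of cartilage rich in γ-carboxyglutamate, read 6.64, 6.48, 7.74 and 4.58 in controls and 7.87, 7.15, 8.10 and 8.11 in cKO. Control array 4 was the lowest and control array 3 lay above cKO array 2. The difference was 1.45 and, without control array 4, 0.85 (unadjusted p = 0.0866). Vcan, the large proteoglycan versican, read 7.46, 7.38, 7.27 and 6.82 in controls and 6.90, 6.19, 6.82 and 6.54 in cKO. The ranges met at control array 4 and cKO arrays 1 and 3, and the difference was -0.62 (unadjusted p = 0.0179). Prg4, the lubricant proteoglycan lubricin, read 9.20, 9.08, 9.95 and 8.17 in controls and 8.20, 8.60, 8.11 and 8.10 in cKO. Control array 4 lay among the cKO arrays, and the difference was -0.85 (unadjusted p = 0.0293). Without control array 3 it was -0.56 (unadjusted p = 0.131). Snorc, a small chondrocyte proteoglycan named to complete the count, was lower by 0.82 (unadjusted p = 0.0486). Col2a1 differed by -0.20 (95% interval -0.81 to 0.41) and Sox9, the transcription factor of chondrocytes, by -0.09 (-0.71 to 0.54).

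Nucleus pulposus and notochord markers, proteases and hypertrophic markers gave no gene at an unadjusted p under 0.05, with 0 of 17, 0 of 19 and 0 of 10. Noto differed by -0.50 (95% interval -1.10 to 0.11) and the adhesion gene Ncam1 by -0.47 (-1.21 to 0.27), and both intervals reached below -1. Among enzymes that HIF-2α has been linked to in cartilage, the collagenase Mmp13 read 5.01, 4.94, 5.72 and 5.78 in controls and 5.71, 5.39, 4.91 and 4.99 in cKO. The ranges coincided, at a dim level, and the interval was -0.65 to 0.43. The aggrecanase Adamts5 read 6.01, 6.50, 7.21 and 6.27 in controls and 5.76, 6.89, 7.03 and 7.70 in cKO, with cKO arrays at both ends. Its difference was 0.35 (95% interval -0.33 to 1.02). Mmp3 differed by 0.03 and the collagen X gene Col10a1 by 0.05, both near the olfactory receptor level.

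The ER stress list had the highest median of the lists, 0.26, with 14 of 19 genes upward. Hsp90b1, the ER chaperone GRP94, read 15.41, 15.59, 15.17 and 15.55 in controls and 16.06, 15.78, 15.70 and 15.72 in cKO. The groups were apart by a small margin, and the difference was 0.39 (unadjusted p = 0.0353). Creb3l2, a membrane-bound transcription factor, was higher by 0.48 (unadjusted p = 0.0371) with an overlap, and by 0.29 without control array 1 (unadjusted p = 0.17). Hspa5, the chaperone BiP, differed by 0.45 (95% interval -0.11 to 1.01) and Ddit3, or CHOP, by 0.37 (-0.43 to 1.17).

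Bhlhe41, a transcriptional repressor of the clock that hypoxia can induce, was lower and the 1 gene of the 16 measured clock genes at an unadjusted p under 0.05. It read 14.89, 15.15, 15.02 and 15.42 in controls and 14.67, 14.56, 14.64 and 14.30 in cKO. Each cKO array lay below each control, with a difference of -0.58 (95% interval -0.99 to -0.17, unadjusted p = 0.00869). Arntl and Dbp, clock genes called at 6 months (2.00 and -3.32), differed by 0.17 and -0.16 at 14 months.

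Further lists held few genes of small p. Genes linked to HIF-2α in other tissues had 0 of 16, with the iron transporter Slc11a2 at 0.06 (95% interval -0.57 to 0.69). Oxidative phosphorylation had 0 of 21 with a median of 0.16, and glycosaminoglycan synthesis 0 of 32 with a median of 0.05. Of 13 neurotrophic and vascular factors the vessel-stabilising ligand Angpt1 was lower (-0.55, groups apart). Of 18 interferon genes the viral restriction factor Bst2 was higher (0.87, and 0.57 without control array 4 or cKO array 3, with unadjusted p = 0.153 and 0.154). Of 17 cell cycle genes 15 differed upward, with a median of 0.155. Among these the kinase Cdk1 was higher at an unadjusted p under 0.05 (0.40, at levels under 4). Of 18 measured genes of senescence and its secreted factors, 2 were higher at an unadjusted p under 0.05 and 0 lower. These stand beside 1.68% and 1.72% of all members, and the median of the list was 0.06. Its largest difference, 1.57, was that of Igfbp5, which is counted in the IGF list as well. The senescence markers Cdkn1a and Cdkn2a differed by 0.35 (95% interval -0.60 to 1.29) and 0.38 (-0.15 to 0.91).

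Of 31 measured inflammation genes, 3 were lower at an unadjusted p under 0.05 and 0 higher, beside 1.72% and 1.68% of all members. Il10, an anti-inflammatory cytokine, read 6.02, 5.86, 5.80 and 5.90 in controls and 5.06, 5.25, 5.22 and 5.12 in cKO. The groups were tight and apart, at a level below the table median, and the difference was -0.73 (SE 0.18) at 14 months beside -0.60 at 6 months. Saa3, an acute phase protein, was lower by a mean of 0.49 with groups apart, and by 0.68 at 6 months, where it passed (adjusted p = 0.039). Cxcl12, a chemokine, read 9.38, 7.32, 7.92 and 12.23 in controls and 6.79, 7.35, 6.84 and 7.57 in cKO. Control array 4 stood far above all others, and the difference went from -2.08 to -1.07 without it. Il6 (-0.06) and Tnf (0.05) were near the olfactory receptor level or below it.

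Muscle markers were high on control array 4. Of 16 muscle markers 2 were lower in cKO at an unadjusted p under 0.05, Tnnc2 (-0.87) and Acta1 (-1.40), 15 of 16 differed downward, and the median was -0.40. Without control array 4 the values were -0.50 for Tnnc2 and -0.48 for Acta1, and the median was -0.13. On the log2 scale the summed level of the muscle list ran from 9.26 to 12.3 in controls and from 9.11 to 9.76 in cKO. Of 12 endothelial markers 1 was lower, the receptor Tek (-0.45), and the median was -0.19. Of 11 annulus and tendon markers Col1a1 was higher and the lectin Clec3a lower (-1.04, with control array 2 far above the rest, and -0.39 without that array, unadjusted p = 0.23). Of 10 osteoclast markers the transcription factor Nfatc1 was higher (0.62). Macrophage, lymphocyte, neutrophil and marrow, erythroid, nerve, fat and osteoblast lists had 0 genes at that level. In bulk tissue, fewer cells of a type and less RNA per cell cannot be told apart. Of 10 ribosomal protein genes Rpl5 was lower, at 16.90, 16.93, 16.74 and 17.28 in controls and 15.99, 16.49, 16.23 and 16.66 in cKO. Those groups were apart by less than 0.1, with a difference of -0.62 (unadjusted p = 0.00651), and at 6 months the difference was 0.84.

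The remaining genes of smallest p belonged to no fixed list. Higher in cKO were Calml4, a calmodulin-like light chain (6.32, 5.76, 5.98 and 6.61 against 6.77, 7.56, 7.14 and 7.89), and Rgs9, a regulator of G-protein signalling (6.76, 7.41, 6.42 and 7.07 against 7.92, 8.84, 7.46 and 8.96). In both genes every cKO array lay above every control, by a margin under 0.2. Lower was Rgs11, a relative of Rgs9, at 5.17, 4.95, 5.23 and 5.61 in controls and 3.90, 4.42, 4.50 and 4.29 in cKO. Its groups were apart, at levels about those of the olfactory receptors. The 2 relatives thus lay in opposite directions, by 1.38 (unadjusted p = 0.00158) and -0.96 (unadjusted p = 0.000196).

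The neuropeptide gene Cck had the greatest mean difference toward cKO among the genes named here, 2.40 (SE 0.66, 95% interval 1.01 to 3.79, unadjusted p = 0.00187). It read 9.65, 8.63, 10.28 and 7.71 in controls and 13.58, 10.27, 11.68 and 10.34 in cKO. The ranges met, since control array 3 and cKO array 2 were within 0.1, and cKO array 1 lay far above the rest. Pcp4l1, a small calmodulin-binding protein gene, read 8.21, 9.42, 10.26 and 7.25 in controls and 11.07, 10.33, 10.66 and 9.80 in cKO. Control array 3 again lay inside the cKO range, and the difference was 1.68 (unadjusted p = 0.00148). Both genes were lowest on control array 4, and without it the differences were 1.95 and 1.17.

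Nfu1, which delivers iron-sulfur clusters to mitochondrial enzymes, differed alike at both ages. It read 9.12, 9.48, 9.15 and 9.09 in the 14-month controls and 9.72, 9.85, 9.82 and 10.04 in cKO, with the groups apart. The difference was 0.65 (unadjusted p = 0.00229) at 14 months and 0.68 at 6 months, where it passed (adjusted p = 0.0397). The membrane skeleton gene Epb41l3 was lower, at 9.44, 9.54, 10.82 and 9.37 in controls and 8.54, 8.73, 9.08 and 8.27 in cKO. The groups were apart, control array 3 was the highest, and the difference was -1.14 (unadjusted p = 0.00135). Also among the smallest p or largest differences were Zfp954, Lrrc69, Efhd1, Slurp1, Mfap3l and Ift122, higher by 0.72 to 1.22, and Trhr, Fbxo2, Zbbx, Vstm2b, Rasgrf2, Atf7ip2 and Nos1ap, lower with differences of -1.01 to -0.71. The groups were apart in each of these 13 genes.

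The genotype difference at 14 months was small where that at 6 months had been large. The members compared first were picked by their 6-month values, a choice that favours large 6-month differences. Some fall of the medians at 14 months was therefore built in, and its share was not tested. Of the members called higher in cKO at 6 months (541, or 2.89% of members), the median difference was 1.17 at 6 months and 0.12 at 14 months. The sign was the same at 14 months for 384 of them (71.0%), where 50.6% of all members had a positive sign, and 21 (3.88%) had an unadjusted p under 0.05 in that direction. Of the 152 called lower at 6 months (0.811%), the median went from -1.01 to -0.07, 93 kept the sign (61.2%, against 49.2% of all members), and 8 had an unadjusted p under 0.05. The arrays of the 2 ages are separate, but males were in excess in cKO at both, and the part of sex in the shared signs was not tested. In the other direction, 107 members were higher in cKO at 14 months with groups apart and an unadjusted p under 0.05. Of these, 62 had a higher value at 6 months as well (57.9%, against 44.8% of all members). At 6 months 7 of the 107 were called higher and 1 was called lower. Of the 116 lower members 76 were also lower at 6 months (65.5%, against 55.1%). At 6 months 1 of the 116 was called lower and 1 was called higher.

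**Figure D4:**
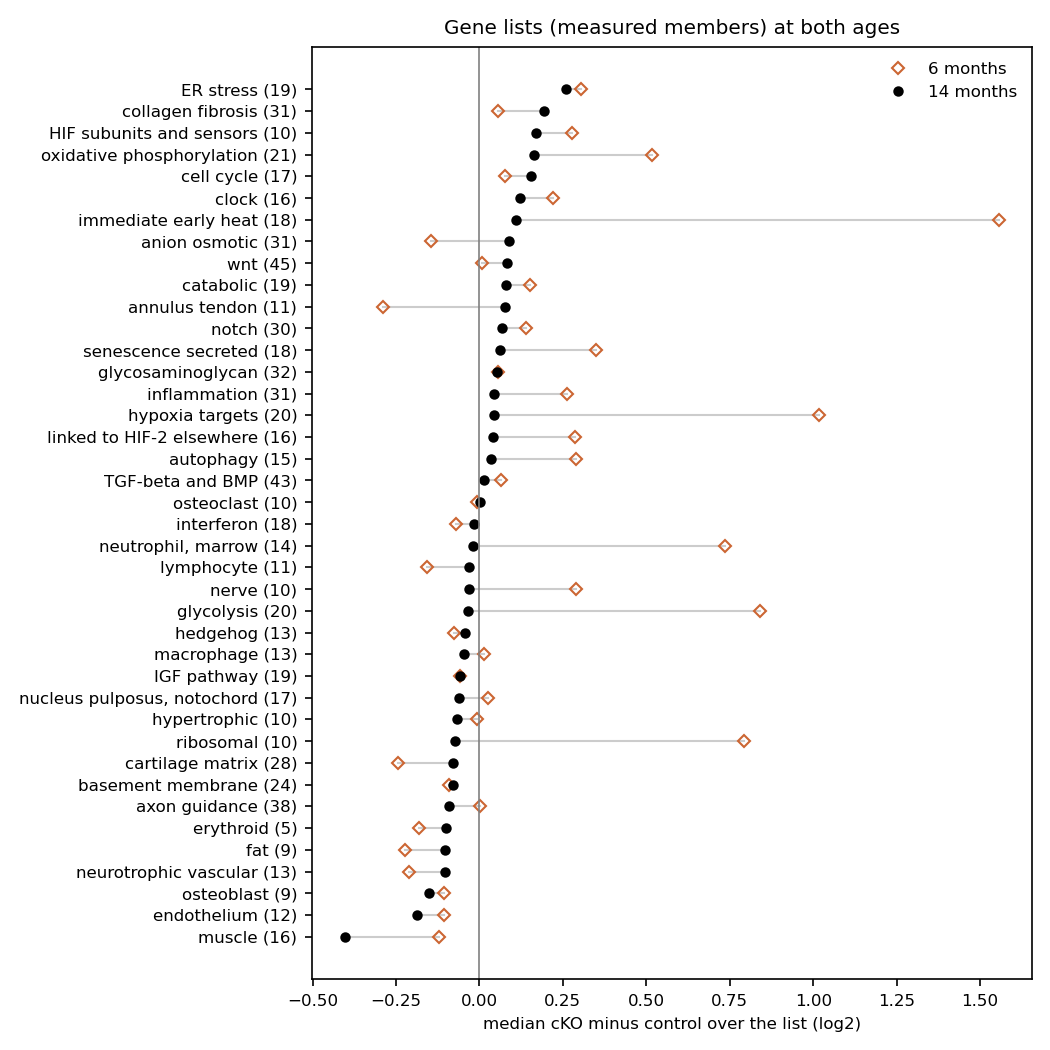
Median cKO-minus-control difference (log2) over the measured members of each gene list, with the number of members in parentheses, at 6 months (open diamonds) and 14 months (black points). At 14 months all medians lie between -0.40 (muscle) and 0.26 (ER stress), while at 6 months hypoxia targets, glycolysis and immediate early and heat shock genes lie at 1.02, 0.84 and 1.56, ribosomal protein genes at 0.79, neutrophil and marrow markers at 0.74 and oxidative phosphorylation at 0.52.

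A test of the difference between the ages called 17 members. In 16 (0.0854%) the cKO-minus-control difference was lower at 14 than at 6 months, and in 1 (0.00534%), Ndnf, it was higher. Among them were Slc2a1 (-1.29, adjusted p = 0.046), Hk2 (-2.76, adjusted p = 0.041), Egln1 (-1.51, adjusted p = 0.043) and the hypoxia-inducible Fam162a (-1.99, adjusted p = 0.0406). For Slc2a1, Hk2 and Egln1 the genotypes had differed at 6 months by 1.33, 2.69 and 1.43 and were within 0.1 of each other at 14 months. Hk2 read 8.53, 9.51, 9.56 and 8.97 in 6-month controls, 10.65, 12.26, 12.36 and 12.06 in 6-month cKO, 11.76, 11.19, 11.16 and 11.92 in 14-month controls and 11.72, 11.64, 11.63 and 10.78 in 14-month cKO. The 6-month controls were thus the group set apart, and both older groups lay at the level of the younger cKO. Egln1 read 12.87 to 13.49 in 6-month controls, 14.48 to 14.83 in 6-month cKO and 15.54 to 16.06 over both 14-month groups, higher still. Slc2a1 read 17.84 to 18.37, 19.28 to 19.63 and 19.65 to 19.81 in the same order, at the top of the scale.

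Sema3d and Lama3 were the only members of the 17 whose difference took the opposite sign by more than 1 at both ages. Sema3d read 12.94, 13.60, 12.64 and 13.82 in 6-month controls and 13.82, 15.24, 14.54 and 15.95 in 6-month cKO, so it was higher in cKO at 6 months (1.64) and lower at 14 months, and all 14-month arrays lay below all 6-month arrays. The difference between the ages was -4.21 (adjusted p = 0.035). Lama3 read 6.68, 7.38, 7.20 and 6.64 in 6-month controls and 7.30, 8.15, 8.65 and 8.40 in 6-month cKO. Its difference between the ages was -3.18 (adjusted p = 0.041). Neither gene was called at 6 months (adjusted p = 0.0711 and 0.108). Of 18 measured immediate early and heat shock genes 3 were among the 17, the transcription factors Nr4a1 and Atf3 and the chaperone Hspa1a. Nr4a1 and Atf3 differed by 3.92 and 3.72 at 6 months and by -0.08 and -0.59 at 14 months. Of the same 18 genes 10 were called at 6 months, and 0 had an unadjusted p under 0.05 at 14 months. With sex given a separate term at each age, 0 of the 17 were called, and leaving out 1 array gave from 2 to 105 calls.

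**Figure D5:**
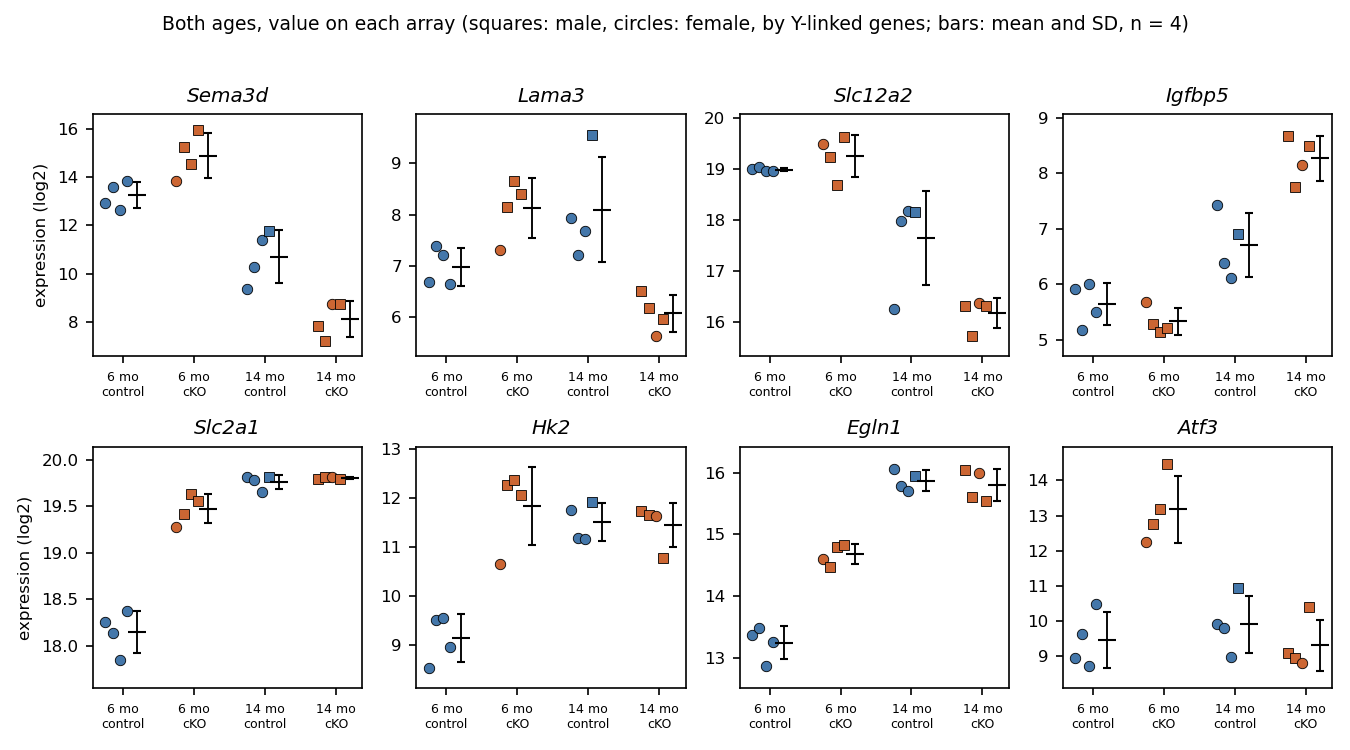
Expression (log2) of 8 genes on all 16 arrays in the 4 groups of age and genotype, with controls in blue and cKO in orange, squares for male and circles for female arrays by Y-linked genes, and the mean with its SD beside each group of 4. For Sema3d and Lama3 the cKO mean lies above the control mean at 6 months and below it at 14 months, whereas Slc2a1, Hk2, Egln1 and Atf3 differ between genotypes at 6 months and overlap at 14 months.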

How the data were processed

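Gene expression was measured in 14-month nucleus pulposus, with total RNA labelled with biotin, per the labels' protocols. The authors deposited a single log2 value for every probe set on every array, the scale being inferred from the range of values. How they were corrected and normalized is not given in the sources used, and they were not altered. Gene names came from the platform annotation: 19572 of 22206 had 1 symbol, all matched by Entrez identifier, and 795 on X and 45 on Y were left out. Means of the 4 groups were fitted over the 16 arrays with limma 3.58.1 in R 4.3.3, and p-values were adjusted (Benjamini-Hochberg, threshold 0.05, two-sided) over all probe sets. SE and 95% intervals are limma's moderated ones, not adjusted for the number of genes. The number of arrays limits the precision. The fit was tested on simulated data.

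The comparison, the gene lists and the rule for named genes were chosen with earlier results of these data known. The rule took Epas1, Hif1a, the 12 smallest p in each direction, the 6 largest differences in each direction among abundant members with groups apart, and from each of the lists its main genes and the 3 members of smallest p. Predicted genes and olfactory receptors were counted and not named. Lists used the probe set of highest mean. Sex was called at a mean of 6 over 3 Y-linked genes. Alternatives were quantile and median scaling, array weights, a filter on dim probe sets, a robust, trended prior, a single probe set for each gene, the 14-month arrays alone, sex as a covariate, the replicate number as a block and leaving out each array in turn. Sex with a term at each age and leaving out the 6-month arrays were added after seeing the data. Promoters are RefSeq's. Python 3.11.15 and matplotlib 3.10.9 made the figures.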

Additional observations from a re-analysis of the deposited data

Results flagged for a closer look

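In 22 of 390 groups of 4 arrays tested among the named genes, 13 of controls and 9 of cKO, the gap between the highest or lowest array and its nearest neighbour, as a share of the group's range, passed Dixon's 95% critical value, which chance passes in about 1 in 20 groups. Control array 1 was high for Aph1b (9.05, others 7.44 to 7.66) and low for Slc12a2 (16.27, others 17.98 to 18.18), Ift122 (7.31), Col1a1 (7.36), the mitotic checkpoint gene Bub1b (4.41) and Cd8a (5.24). Control array 2 was high for Nfu1 (9.48) and the cartilage lectin Clec3a (7.96, others 5.23 to 5.64). Control array 3 was high for Epb41l3 (10.82) and Gli1 (6.03). Control array 4 was high for the muscle troponin Tnnc2 (6.25), Rasgrf2 (7.57) and Gadd45g (8.56). In cKO, array 1 was high for Acta1 (5.81) and low for Acan, where 19.3 lay just under 19.31 on the other arrays. Array 2 was low for Slc12a2 (15.74) and Angpt1 (4.06), and array 3 was low for Efhd1 (6.18). Array 4 was high for Esam (7.06) and Hif3a (5.22) and low for the channel gene Panx3 (3.97) and Hk2 (10.78).

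The genotype difference itself differed between the ages for 17 genes by limma's test, with these values of the 14-month minus the 6-month difference. They were -4.21 for Sema3d, -3.18 for Lama3, -2.76 for Hk2, -1.51 for Egln1 and -1.29 for Slc2a1. The 3 genes of the immediate early and heat shock list had -3.99 (Nr4a1), -4.31 (Atf3) and -2.07 (Hspa1a). The others had -2.86 (Klf10), -3.56 (Gadd45g), -3.45 (Ifrd1), -4.78 (the kinase Pim1), -3.81 (the phosphodiesterase Pde4b), -2.66 (Tuba4a), -1.99 (the hypoxia-inducible Fam162a), -1.67 (Klhl21) and 2.80 (Ndnf).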

How the results depend on the processing

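The count of 0 calls at 14 months held under scaling, the dim filter, 1 probe set per gene, array weights, the trended prior and the 14-month arrays alone. It was 1 with sex as a covariate and 1 with sex at each age (Lama3 in both), and leaving out 1 array gave 0 to 4: Igfbp5, Sema3d, Aph1b and Slc12a2 without control array 1, and the predicted gene Gm572 without control array 3. Array weights gave 532 higher and 520 lower members at an unadjusted p under 0.05 and 41 calls for the difference between the ages. The dim filter, which kept 10394 members, left 216 higher and 113 lower at an unadjusted p under 0.05. With groups apart it left 186 higher and 87 lower, so the near-equal split over all members did not hold among the brighter ones. Leaving out 1 array gave 269 to 490 higher and 220 to 450 lower, the most in each case without control array 4, and 448 to 788 higher and 418 to 659 lower with groups apart, where 3 arrays in a group separate more easily. Of 3645 values of named genes at 14 months, 3638 kept their side of the adjusted threshold and 7 gained a call. In 127 the sign changed, with an unadjusted p at or above 0.05 before and after.

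The 17 calls for the difference between the ages became 0 with sex at each age and 2 to 105 leaving out 1 array. Of 14-month arrays, 10 and 9 were called without controls 3 and 4 and 2, 5, 3 and 5 without cKO 1 to 4. Of 6-month arrays, 5 and 2 were called without controls 1 and 3, 105 without cKO 1, and 2 each without cKO 3 and 4. The cause was not tested.

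Nothing states that equal replicate numbers are pairs. After each group's mean was taken off, same-numbered 14-month arrays correlated at 0.09, -0.02, 0.02 and 0.03. The median correlations of each control array with cKO arrays of other numbers were -0.04, 0.02, -0.02 and -0.09. Each control array correlated best with a cKO array of another number. With the number as a block, 1 probe set was called at 14 months (Sema3d, adjusted p = 0.0242), 282 were higher and 280 lower at an unadjusted p under 0.05, and 16 were called for the difference between the ages.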
